A study of Mus musculus with 3 samples.

Results

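The genes described here code for proteins of the small (40S) ribosomal subunit. They are the 27 members of a fixed list of gene symbols, Rps2, Rps3, Rps3a1, Rps6, Rps7, Rps9, Rps10, Rps12, Rps13, Rps14, Rps15, Rps15a, Rps16, Rps18, Rps19, Rps20, Rps21, Rps23, Rps24, Rps25, Rps26, Rps27, Rps27l, Rps28, Rps29, Rpsa and Rack1. All 27 were found among 18085 autosomal genes with a listed site, of which 14138 were protein-coding. The measured material was RNA of F121-9, a hybrid mouse embryonic stem (ES) cell line that carries a Cast and a 129 genome, in 3 libraries named as biological replicates 1, 2 and 3. Each was at passage 14 and was made from 500 ng of RNA, with no treatment given in the labels. Poly(A) site sequencing (PAS-seq, here by the QuantSeq method) starts at the poly(A) tail of an RNA, and a read therefore shows where that RNA was cleaved, while the number of reads at a site measures how many RNAs ended there. There was 1 group and no contrast between conditions, and every result is from 1 line. Separate cultures are not named in the labels, and p-values thus measure a spread that could be technical.

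A ribosome is built from a small subunit, which holds the mRNA and checks each codon, and a large subunit, which joins the amino acids. Each small subunit contains a single copy of nearly every one of its proteins, bound to 18S rRNA in a head and in a body with its platform. Messenger RNAs of ribosomal proteins are among the most abundant in dividing cells such as ES cells, end in short 3′ untranslated regions (UTRs), and have left many processed pseudogenes, which are DNA copies of the spliced mRNA, in mammalian genomes.

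The main results turn on where these mRNAs end. The 4 members with the highest levels are shown first, as the last 30 bases before and including the main cleavage site, read 5′ to 3′ from the GRCm38 (mm10) reference genome. Capitals mark any of 18 poly(A) signal hexamers, the sequences that direct cleavage (the canonical AATAAA, the common ATTAAA, and the rarer TATAAA, then AGTAAA, then AATACA, then CATAAA, then AATATA, then GATAAA, then AATGAA, then AATAAT, then AAGAAA, then ACTAAA, then AATAGA, then ATTACA, then AACAAA, then ATTATA, then AACAAG, then AATAAG, searched on the strand of the gene). All letters are those of the reference, and bases at which the Cast or 129 genome differs were not tested.
Rps20 (chr4:3834473-3834502, minus strand): aagacaactgAATAAAtcgtcttaatggtc
Rack1 (chr11:48806069-48806098, plus strand): AATAAActggctttctgaaactggcttcta
Rps12 (chr10:23785184-23785213, minus strand): taAATAAAttttggctgatttttctcttgt
Rps26 (chr10:128624537-128624566, minus strand): cctggaaaAATAAAatggaagttgtacttt
All 4 carry the canonical signal AATAAA, and in each the site lies in the 3′ UTR of the terminal exon.

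The next lines show the 5 members whose main site had neither AATAAA nor its common variant ATTAAA in the 40 bases upstream.
Rps24 (chr14:24495873-24495902, plus strand): gcttattgggcattagaagaatcaggtggc
Rps15a (chr7:118109045-118109074, minus strand): tgtggactgtgctcagggtcagtccttttg
Rps7 (chr12:28630852-28630881, minus strand): caacttctttctttgtaaacaactgtccac
Rps10 (chr17:27630472-27630501, minus strand): cggctttggtcgtggacgtggtcagccacc
Rps25 (chr9:44407964-44407993, plus strand): tgcactcccgctttcttcccctagcctccc
None of the 18 hexamers occurs in these stretches or elsewhere in the 40-base windows. That says only that these letters are not there.

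The deposited lists held 178115 sites, with 9326090, 12500338 and 13040404 reads at autosomal sites in replicates 1, 2 and 3. Replicate 3 had no reads on X, Y or the mitochondrial genome, while the other 2 had such reads. Levels are given in RPM, which is the number of reads at a site scaled to the reads of the library. ES cell identity was checked with 9 naive ES markers, of which 8 were at 10 RPM or more (Dppa5a, at 0.314 RPM, was the other). Their summed level lay between 3587 and 4030 RPM. Of 8 feeder fibroblast markers, Postn and Dcn were at 0 and only Thy1 exceeded 10 RPM, with a summed level of 52.4 to 133 RPM. For 5 primitive endoderm markers the sum was 2.98 to 9.24 RPM. The part of other cells in the levels below was not tested.

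The first question was how many 3′ end reads each gene had. The 27 genes together gave 36873 ± 2825 RPM (mean ± SD, n = 3), or 4.35% ± 0.0896 of autosomal reads. Their levels were far from equal. The highest mean, 5459 RPM for Rps20, was 2531 times the lowest, 2.16 RPM for Rps3a1. Of the 27 genes, 11 were at 1000 RPM or more, 16 at 100 RPM or more, 8 under 30 RPM and 3 under 10 RPM. Because each read comes from 1 RNA end, levels were compared between genes in RPM without division by length. In such bulk RNA, fewer cells with a transcript and less of it per cell cannot be told apart. How reads that fit several places in the genome were treated is also not known here. Their part in the low levels was not tested, so a low level is not by itself a scarce mRNA.

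**Figure D1:**
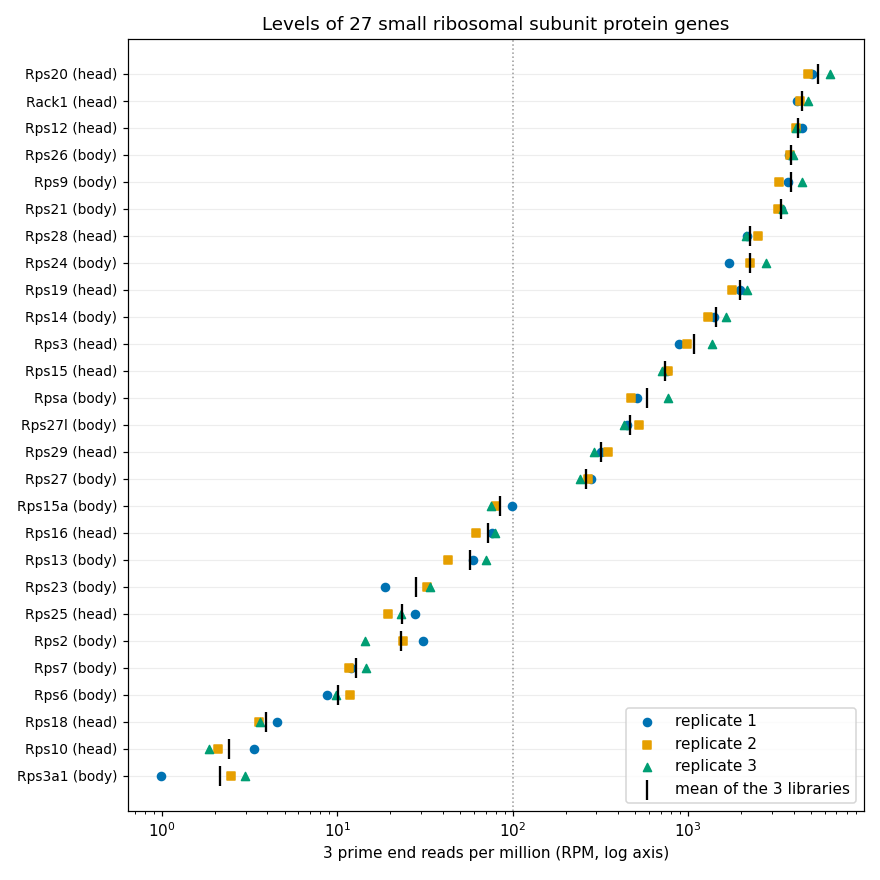
Level of each of the 27 genes in RPM (log axis), ordered by the mean, with 1 symbol per library and a bar at the mean; head or body gives the place of the protein in the subunit. Rps20 is at the top with 5459 RPM and Rps3a1 at the bottom with 2.16 RPM, and a step between Rps27 (263 RPM) and Rps15a (85.0 RPM) separates 16 genes above 100 RPM (dotted line) from 11 below it.

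The order of the genes was nearly the same in every library. Across the 27 genes the Spearman coefficient of the levels was 0.995 for replicates 1 and 2, 0.988 for replicates 1 and 3 and 0.991 for replicates 2 and 3. These are descriptions across genes, which are not independent replicates and share the annotation and the counting. Neighbours in the order were often not separable, since the ranges of 15 of the 26 neighbouring pairs overlapped. The widest step, 3.09-fold, was between Rps27 and Rps15a, followed by 2.60-fold between Rps6 and Rps18 and 2.03-fold between Rps13 and Rps23, each with ranges that did not overlap. The 6 highest genes (Rps20, Rack1, Rps12, Rps26, Rps9 and Rps21) held 68.3% ± 1.14 of the reads of all 27. The 11 genes under 100 RPM held 0.872% ± 0.0794.

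Among the 12 genes of the head, 8 were at 100 RPM or more, with a median of 909 RPM. Rps20, a protein of the head, was at 5094, 4846 and 6436 RPM in replicates 1, 2 and 3. Replicate 3 was the highest, and all 3 libraries lay above every library of Rack1. Rack1, a propeller-shaped scaffold on the head that binds signalling proteins, was at 4190, 4342 and 4810 RPM. Rps12, a protein of the beak of the head, was at 4441, 4092 and 4136 RPM, and its range overlapped that of Rack1. Rps28, Rps19, Rps3, Rps15 and Rps29 followed, with means of 2264 ± 211, 1982 ± 194, 1078 ± 254, 740 ± 31.4 and 319 ± 27.8 RPM (SD, n = 3). Rps19 is the gene most often mutated in Diamond-Blackfan anaemia, and Rps3 lines the entry of the mRNA channel. The other 4 head genes were low. Rps16, whose tail reaches the decoding region, was at 72.3 ± 9.47 RPM. Rps25, a head protein that several viral internal ribosome entry sites need, was at 27.7, 19.5 and 23.2 RPM. Rps18, which contacts the large subunit, was at 4.51, 3.57 and 3.63 RPM, from 50, 53 and 51 reads. Rps10, at the beak, was at 3.34, 2.09 and 1.85 RPM, from 37, 31 and 26 reads. Both lay below 5 RPM in every library, and their ranges did not overlap.

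Among the 15 genes of the body and platform, 8 were at 100 RPM or more as well, with a median of 263 RPM. Rps26, which sits at the exit of the mRNA channel, was at 3777, 3807 and 3958 RPM and had the smallest coefficient of variation (CV) of the 27, 2.53%. Rps9, a body protein at the entry of the mRNA channel, was at 3838 ± 589 RPM, and Rps21 at 3359 ± 121 RPM. Rps24, a body protein, was at 1699, 2245 and 2765 RPM in replicates 1, 2 and 3. It was lowest in replicate 1 and highest in replicate 3, with a CV of 23.8%. Rps14, a platform protein, was at 1449 ± 182 RPM and Rpsa, at the back of the platform, at 582 ± 160 RPM. The 7 genes of this group under 100 RPM spanned a wide range. Rps15a and Rps13 were at 85.0 ± 12.7 and 57.3 ± 13.7 RPM. Rps23, a protein of the decoding centre, was at 18.6, 32.4 and 33.8 RPM, lowest in replicate 1. Rps2, at the entry of the mRNA channel, was at 30.9, 23.8 and 14.4 RPM, lowest in replicate 3. Rps7, of the platform, was at 11.998, 11.7 and 14.6 RPM. Rps6, the protein that S6 kinase phosphorylates, was at 8.75, 11.8 and 9.81 RPM. Rps3a1, of the platform, was the lowest of all, at 0.992, 2.49 and 2.99 RPM, from 11, 37 and 42 reads.

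The largest CVs were those of Rps3a1 (48.1%), Rps2 (35.8%) and Rps10 (33.0%). All 3 were under 30 RPM. Among the 16 genes at 100 RPM or more, the median CV was 9.56%, against 9.64% for large subunit genes and 10.9% for all protein-coding genes at that level. Replicate 3 gave the highest value for 15 of the 27 genes, and for 10 of 27 after scaling to autosomal reads.

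Rps27 and Rps27l are paralogs, and their proteins, with a zinc finger, take the same place in the subunit. Rps27 was at 278, 269 and 241 RPM, and Rps27l was at 449, 523 and 429 RPM. Rps27l was the higher in 3 of 3 libraries, by 1.61, 1.94 and 1.78 times in replicates 1, 2 and 3, and the ranges did not overlap. The pair is given by its values, with no test.

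The 45 large subunit genes had a like spread of levels. Their median over the libraries was 406 ± 24.8 RPM, against 449 ± 20.4 RPM for the 27 small subunit genes, and 14 of the 27 lay above the mean-level median of the large subunit genes. Large subunit levels ran from 1.92 RPM (Rpl24) to 5514 RPM (Rpl32), and 8 of the 45 were under 30 RPM. The 26 genes for assembly of the small subunit had a median of 82.0 ± 4.41 RPM, from 7.11 RPM (Dhx37) to 377 RPM (Wdr43). Among 11481 protein-coding genes at 1 RPM or more, the median was 18.9 RPM, 13.9% were at 100 RPM or more and 0.653% at 1000 RPM or more.

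Reads of a 3′ end that occurs at several places in a genome cannot be placed with certainty, and how such reads were treated is not given in the sources used here. The levels were therefore set beside the number of genome copies of each gene's last 100 coding bases, stop codon included. Exact copies outside the gene were found for 15 of the 27 genes (55.6%), for 31 of the 45 large subunit genes (68.9%) and for 3.13% of 14089 protein-coding genes. Copies with at least 95% identity were found for all 27 genes, against 9.83% of protein-coding genes. The 27 genes had 234 such copies, of which 206 lay in processed pseudogenes.

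The genes without an exact copy were mostly the abundant ones. Of these 12, 11 (Rps3, Rps9, Rps14, Rps15, Rps19, Rps20, Rps21, Rps24, Rps26, Rps27l and Rack1) were at 467 RPM or more, and Rps10 alone was low, at 2.42 RPM. Of the 15 with an exact copy, 10 were under 100 RPM. The other 5 were Rps12, Rps28, Rpsa, Rps29 and Rps27. Rps12 had 16 exact copies, the most of any member, and was at 4223 ± 190 RPM, above 24 of the other members. Median levels were 57.3 RPM with and 2109 RPM without an exact copy. Across the 27 genes the Spearman coefficient between level and number of exact copies was -0.486. Across the 45 large subunit genes it was -0.0965, with medians of 346 RPM with and 1037 RPM without a copy. Over 14089 protein-coding genes the direction was the other way, with medians of 22.9 RPM with and 11.3 RPM without a copy and a coefficient of 0.0488. The points share the same libraries and genome, and the coefficients are given as descriptions. Within the transcript's last 100 bases, UTR included, exact copies were fewer, for 7 of the 27 genes, and 3 of those 7 were at 100 RPM or more. By this measure the median levels were 10.1 RPM with and 909 RPM without an exact copy, with a Spearman coefficient of -0.400. For large subunit genes they were 76.7 RPM with and 907 RPM without, with a coefficient of -0.310. For protein-coding genes they were 3.88 RPM with and 11.6 RPM without, with a coefficient of -0.0469. Rps10 was among the 7, with 1 exact copy of its transcript end. The part of multiply placed reads in the low levels was not tested.

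**Figure D2:**
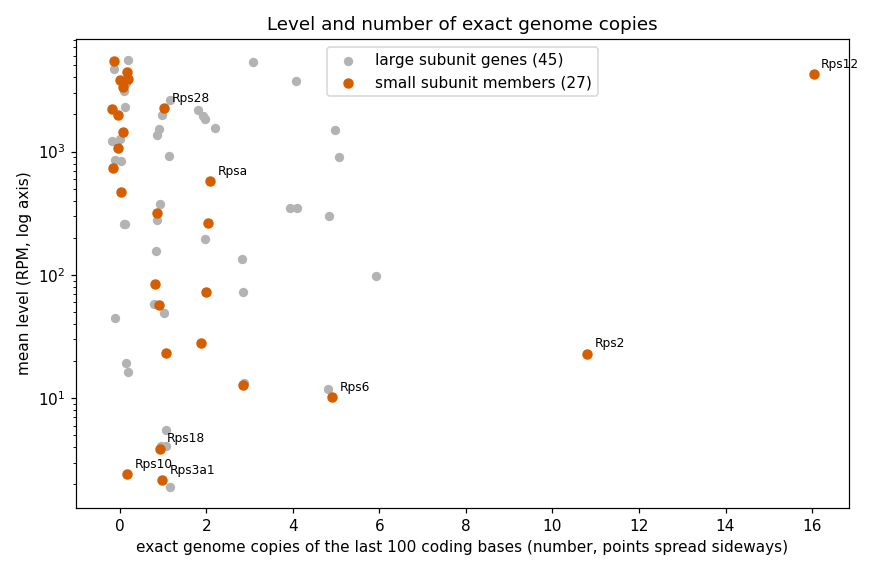
Mean level in RPM (log axis) against the number of exact genome copies of the last 100 coding bases, for the 27 small subunit genes and the 45 large subunit genes; points are spread sideways within a number. At 0 copies every small subunit gene but Rps10 is at 467 RPM or more, and Rps12 stands at 16 copies with 4223 RPM.

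Few reads were listed at the copies themselves. Summed over all of them, sites from the start of a copy to 100 bases past its end held 465 ± 93.5 RPM, against 36873 RPM at the 27 genes, and 11 copies reached 10 RPM. Rps18 had the most reads at its copies. Its copies held 133, 110 and 248 RPM in replicates 1, 2 and 3, or 29.4, 30.8 and 68.4 times the level of Rps18 itself. Most of these reads lay at Gm6794, a processed pseudogene on chromosome 6 (66712050 to 66712147 on the plus strand), with 114, 89.8 and 224 RPM at 95.9% identity. Rps18-ps3 on chromosome 8 (107262790 to 107262889), at 99% identity, added 14.5, 17.5 and 16.1 RPM. Copies also held more reads than the gene for Rps3a1, Rps10 and Rps25. Rps15 had 74.8 RPM at its copies beside 740 RPM of its own, and Rps15a 40.9 RPM beside 85.0 RPM. With the copies added, 18 of 27 genes would be at 100 RPM or more, in place of 16. Whether the reads at the copies came from RNA of the gene or of the copies was not tested.

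The second question was where in each gene the mRNA ends. Of 181 sites assigned to the 27 genes, 118 lay in a terminal exon, and these held 99.8% ± 0.0367 of the reads. The 68 sites read in every library held 99.9% ± 0.00971, and 83 sites were read in 1 library only. At 26 of the 27 genes the main site, the one with the highest mean RPM, lay in a terminal exon extended by 24 bases. In Rps3a1, Rps18 and Rps7 it lay 1, 1 and 2 bases past the annotated end and counted only through that extension. The deposited lists give the sites of Rps3a1 and Rps18 the same class (DS) as that of Rps6. Over the 27 genes the main site held a median of 99.1% ± 0.346 of a gene's reads. This was 91.7% ± 0.861 over 11185 protein-coding genes with at least 50 reads and 95.8% ± 0.138 over 1594 of them at 100 RPM or more. The median over the 45 large subunit genes was 98.9% ± 0.560. For 19 of the 27 genes (70.4%) the main site held 95% or more. Of large subunit genes 30 of 45 (66.7%) did so, and of protein-coding genes 39.0%. At 100 RPM or more this was so for 15 of 16 genes, Rps27l being the exception, against 52.3% of protein-coding genes at that level. No test was made of these shares, since the genes were chosen with earlier results of these data known.

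**Figure D3:**
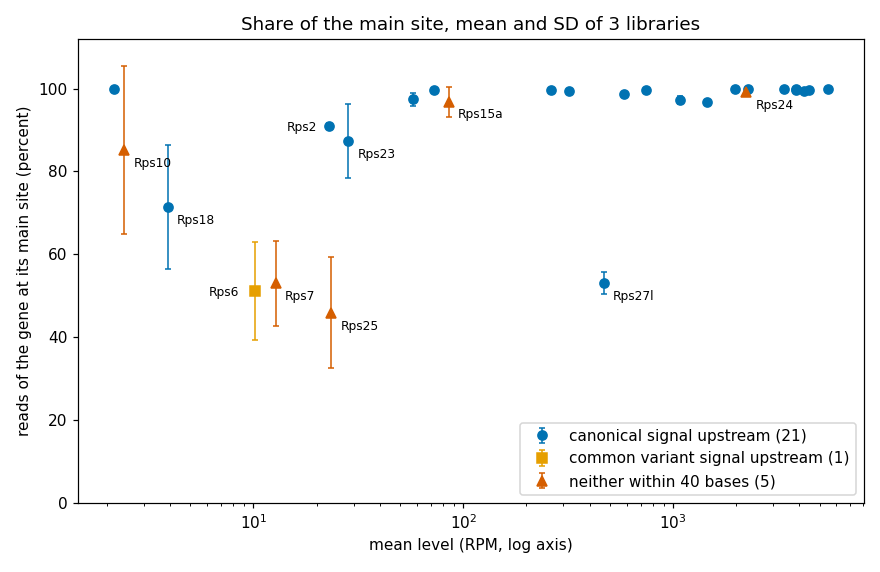
Share of each gene's reads at its main site in percent (mean, with bars of 1 SD over 3 libraries) against its mean level in RPM (log axis), with symbols for the signal upstream. Genes at 100 RPM or more lie at 96.8% or above except Rps27l at 53.0%, and the genes below 80% otherwise (Rps6, Rps7, Rps18, Rps25) are all under 30 RPM.

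AATAAA preceded the main site in 21 of the 27 genes (77.8%). Over protein-coding genes with at least 50 reads the share was 64.0%, over those at 100 RPM or more 68.9%, and over large subunit genes 73.3%. ATTAAA served 1 of the 27 (Rps6), against 15.7% of protein-coding genes, and none of the 27 main sites had only one of the other 16 hexamers, against 14.6%. At its other site, which is the main one without replicate 2, Rps6 has one of those 16 in place of ATTAAA. None of the 18 was found at 5 of the 27 (18.5%), against 5.69%. These were 1 of the 16 genes at 100 RPM or more (6.25%), against 2.89% of protein-coding genes at that level, and 4 of the 11 under 100 RPM. At 100 RPM or more, 15 of 16 genes had AATAAA. From its first A to the site the distance was 17 to 32 bases, with a median of 24. The median was also 24 over large subunit genes, and 21 over protein-coding genes. The distance was shortest in Rps13 and longest in Rpsa. In the 40 bases after the site, G and T made up a median of 65.0%, as in large subunit genes (65.0%). Over protein-coding genes it was 57.5%, and over those at 100 RPM or more 60.0%. Such GT-rich stretches are where the cleavage stimulation factor binds in mammalian genes.

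Rps24 was the abundant gene without a signal. Its gene lies at chr14:24487125-24496959 on the plus strand, and the site at base 24495902 falls in the terminal exon of transcript Rps24-210, 116 bases past the stop codon. This site was at 1684, 2221 and 2744 RPM, which was 99.1%, 98.9% and 99.2% of the gene's reads. A site with AATAAA at the end of the longest transcript, base 24496955, was at 2.71, 3.37 and 1.35 RPM. So the site shown above without a hexamer held nearly all reads in every library. Rps24 is known for alternative splicing of very small exons near its 3′ end.

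The other main sites without a signal differed in kind. In Rps15a, at 97.4, 74.6 and 75.01 RPM, the deposited hexamers place an AATAAA 43 bases upstream, just outside the 40-base window. In Rps7, the site at base 28630852 of chromosome 12 was at 7.76, 5.39 and 7.04 RPM, or 53.0% ± 10.2 of the reads, and lay 264 bases past the stop codon. In Rps10, the site was at 2.07, 1.95 and 1.85 RPM and lay within the coding sequence of 4 annotated transcripts and in their terminal exon. No site with reads was listed in the annotated 3′ UTR that follows. The transcript end of Rps10 has 1 exact genome copy, and the part of multiply placed reads in this was not tested. In Rps25, the site was at 11.6, 6.80 and 14.1 RPM and was followed by 13 A in 20 bases, where priming on A-rich RNA can mimic a poly(A) tail. It too lay in coding sequence, that of 2 transcripts, and was counted in a terminal exon through shorter transcripts that retain an intron. Main sites inside coding sequence were 2 of the 27 (7.41%), against 1.65% of protein-coding genes. Rps6 was similar. No reads were listed in its terminal exon, and all its reads lay at sites beyond the annotated end. The first of these, 194 bases past the end and followed by 12 A in 20 bases, was at 3.61, 7.61 and 4.69 RPM, and another, 363 bases further on at base 86854103, was at 5.14, 3.10 and 5.12 RPM. The first was the higher in replicate 2 only, and without replicate 2, or without A-rich sites, the other becomes the main site. Without A-rich sites the level of Rps6 would be 4.83 RPM in place of 10.1 and that of Rps25 12.6 in place of 23.5. A-rich main sites made up 2 of the 27, against 1.22% of protein-coding genes.

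The 3′ UTRs were short. From stop codon to main site the median was 55 bases over the 25 genes where it could be measured (quartiles 45 and 89), against 667 bases (276 and 1481) over 10856 protein-coding genes. It was under 100 bases in 20 of 25 genes (80%), against 7.14% of protein-coding genes and 12.5% of those at 100 RPM or more. Large subunit genes had a median of 52 bases. The shortest were Rps12 with 27, Rps20 with 28 and Rps15 with 33 bases, and in Rps12 the first A of AATAAA is also the last base of the TAA stop codon. The longest were Rps7 with 264, Rps23 with 262 and Rps6 with 236 bases, all 3 under 30 RPM. That of Rps6 includes the 194 bases past its annotated end and would be 363 bases longer at its other site. The last 100 coding bases had 3 exact genome copies in Rps7, 2 in Rps23 and 5 in Rps6. The part of multiply placed reads in these lengths was not tested. No length is given for Rps10 and Rps25, whose main sites lie in coding sequence. Rps27l had 173 bases, the longest among the genes at 100 RPM or more, where its paralog Rps27 had 54.

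**Figure D4:**
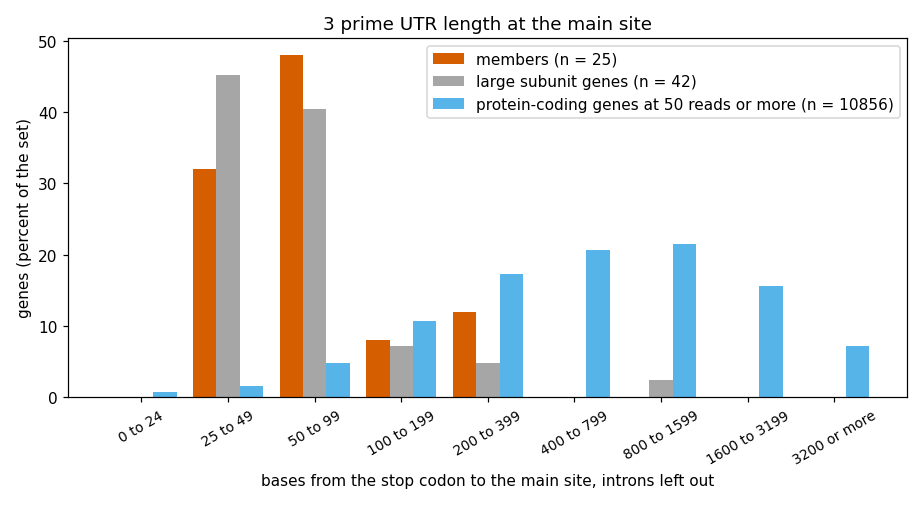
Share of genes in percent by the number of bases from the stop codon to the main site, for 25 small subunit genes (members), 42 large subunit genes and 10856 protein-coding genes with at least 50 reads. Most of both ribosomal sets lie in the classes of 25 to 99 bases, where 20 of the 25 small subunit genes fall.

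The third question was whether genes with several sites in 1 terminal exon preferred the distal or the proximal one. Only 5 of the 27 genes had a pair in which both sites held at least 5% of the reads, and none of the 5 passed the test in either direction. The pairs of Rps7 and Rps18 were testable only with terminal exons extended by 24 bases. The sequences of the sites of all 5 pairs follow, where the canonical signal or a variant is in capitals and stretches already shown above (the distal site of Rps7) are left out.
Rps27l proximal (chr9:66949438-66949467, plus strand): ttgtttgatttTATAAAgtctacaacaatg
Rps27l distal (chr9:66949485-66949514, plus strand): cagtttttcAATAAAgttttaattatggac
Rps23 proximal (chr13:90924702-90924731, plus strand): cagtAATAAAttttcatattctgaaaaaat
Rps23 distal (chr13:90924916-90924945, plus strand): caagtttAATAAAgtgtcatagaggtcttt
Rps7 proximal (chr12:28631074-28631103, minus strand): AATAAAgtgtcattcatagtatttggttgt
Rps18 proximal (chr17:33952034-33952063, minus strand): ggtgtatccaagAAGAAAtgagtctctggg
Rps18 distal (chr17:33951998-33952027, minus strand): ctgttAATAAAtagtttatatacctatgac
Rps25 proximal (chr9:44410084-44410113, plus strand): tcactcgtgccctttatgagatgttgcggt
Rps25 distal (chr9:44410364-44410393, plus strand): cctgaAAGAAAATAAAaacttagcaagact
The distal site has AATAAA in Rps27l, Rps23, Rps18 and Rps25 but not in Rps7, where the proximal site has it. In Rps25 the capitals join AAGAAA and an overlapping AATAAA.

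Rps27l was the abundant gene with 2 sites. The gene is at chr9:66946086-66949516 on the plus strand, and its sites are 47 bases apart in the 3′ UTR. The proximal site, with TATAAA, was at 219, 249 and 187 RPM, and the distal site, with AATAAA, was at 229, 272 and 241 RPM. The distal site was a little higher in 3 of 3 libraries, with 51.1%, 52.2% and 56.3% of the pair's reads. The log2 ratio of distal over proximal was 0.19 ± 0.38 (SE) with a limma adjusted p of 0.720. The ranges of the 2 sites overlapped, and whether the variant and the canonical hexamer were used equally was not tested.

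In Rps23 the distal site dominated, 214 bases beyond the proximal one, and both carry AATAAA. It was at 18.1, 27.1 and 27.2 RPM, and the proximal site at 0.0902, 2.56 and 4.12 RPM, where the first of these values is 1 read. The distal share was 92.6% ± 6.41, the log2 ratio was 4.37 ± 1.07 (SE) and the limma adjusted p was 0.0597. The distal site was higher in 3 of 3 libraries with no overlap. It lay 262 bases past the stop codon, and the proximal site lay closer to the coding sequence. The last coding bases of Rps23 had 2 exact genome copies, while its transcript end had no exact copy. The part of multiply placed reads in the low proximal level was not tested. The call depended on the method, since edgeR's quasi-likelihood test on recovered reads gave a log2 ratio of 3.98 with an adjusted p of 0.0017 and DESeq2 gave 4.10 with 7.4e-06.

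Rps7 and Rps18 had higher distal sites that did not pass. In Rps7 the distal site held 66.2%, 64.0% and 69.7% of the pair's reads, with a log2 ratio of 0.99 ± 0.39 and a limma adjusted p of 0.126. In Rps18 it held 60.0%, 72.9% and 88.2%, from 110 reads at the distal and 39 at the proximal site, with a log2 ratio of 1.57 ± 0.61 and a limma adjusted p of 0.125. Both distal sites were higher in 3 of 3 libraries, at 5.39 to 7.76 RPM in Rps7 and 2.36 to 3.20 RPM in Rps18. A further site of Rps7, beyond the terminal exon at base 28630766, was not part of the pair. It was at 0.271, 2.42 and 4.48 RPM in replicates 1, 2 and 3, with 18.7% of the gene's reads. The last coding bases of Rps7 had 3 exact genome copies, while its transcript end had no exact copy. Rps18 had 1 exact copy by either measure. The part of multiply placed reads in these distal shares was not tested. In Rps25 the shares of the distal site, 52.2%, 38.5% and 50.4%, fell on both sides of equality, with a log2 ratio of -0.17 ± 0.42 and a limma adjusted p of 0.763.

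**Figure D5:**
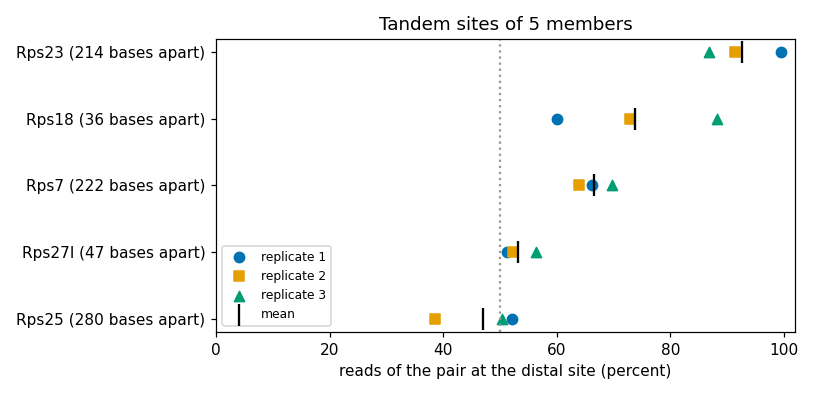
Share of the pair's reads at the distal site in percent for the 5 genes with a testable pair, 1 symbol per library and a bar at the mean, with a dotted line at equal use. Rps23 lies highest at 92.6%, while Rps27l and Rps25 lie near the line at 53.2% and 47.0%.

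Over all 5120 genes tested by limma, 909 (17.8%) favoured the distal site and 382 (7.46%) the proximal site with both an adjusted p below 0.05 and a ratio of 2 or more, beside 0 and 0 of the 5 genes. At an unadjusted p under 0.05, 1 of the 5 (Rps23) passed with limma, 1 with edgeR and 1 with DESeq2. After adjustment both of the count-based tools called Rps23 alone. The median log2 ratio was 0.99 over the 5 genes and 1.27 over all genes tested. Of 9 large subunit genes tested, 2 favoured the distal and 3 the proximal site, and of 9 assembly genes 1 favoured the distal site.

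Among the genes without a testable pair, Rps6 had its reads split between 2 sites, as described above, and Rps10 had a site in another exon with 12.6% ± 21.8 of its reads, read in replicate 1 only. The main site held 99.998% of the reads in Rps21, 99.997% in Rps28, 99.992% in Rps9 and 99.977% in Rps19, as means over the libraries. In Rps2 it held 91.0% ± 0.630, and none of its other sites held 5% of the reads in the mean over the libraries. Rps3 had a further site 992 bases beyond its main one with 2.49% ± 1.05 of its reads, and Rps14 one in another exon with 1.61% ± 0.599.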

How the data were processed

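For each library the authors deposited a list of poly(A) sites with a value in RPM. Per the text files that accompany the deposited lists, the assembly was mm10 and the annotation GENCODE M21. The deposited lists also hold the share (fraction) of the 3 libraries with reads at a site, and the authors' mean RPM. Which aligner and site caller were used, and how reads with several map positions were treated, was not given in the sources used here. Read numbers were recovered from RPM, where 100% of values came out as whole reads within 0.01 reads, with library totals of 11085428, 14855484 and 14064461 reads in replicates 1, 2 and 3. Listed sites took up 91.5%, 91.0% and 92.7% of them. Intervals are not given, and the SD over 3 libraries sets the precision.

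Sites were assigned to GENCODE M21 genes on their strand, and 80 that fitted more than 1 gene equally were left out. A level is the sum over exon sites and those up to 1000 bases downstream. Terminal exons were extended by 24 bases, a choice made after seeing the data, and the rule that a site in coding sequence has no UTR length was also added then. Genome copies were found with BLAST+ 2.17.0 (at least 95% identity over at least 90% of 100 bases). A site counted as A-rich with 12 A in the next 20 bases or a run of 6 A.

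For each gene with at least 50 reads, the most proximal and most distal sites of 1 terminal exon with at least 5% of the reads were compared with limma 3.58.1 (R 4.3.3) on log2(RPM + 0.05), with the library as replicate block, since both sites come from 1 library, and Benjamini-Hochberg adjustment over 5120 genes. Such ratios understate the change of low sites. When tested on simulated data, the fit recovered the ratios, but called changed genes only where many genes had been changed. Alternatives were edgeR 4.0.16, which called 1331 distal and 590 proximal genes on recovered reads, DESeq2 1.42.0, other minimums and pseudocounts, and leaving out each library. Tables were handled with Python 3.11.15 and pandas 2.3.3.

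The members and lists were chosen with earlier results of these data known. Values in every library are given for the 4 highest and 4 lowest members, the 3 with the largest CV, those with a testable pair, those without AATAAA or ATTAAA, the 3 with the largest second site, and Rps27 with Rps27l. The others are given in a clause. Sequences are from the GRCm38 genome.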

Additional observations from a re-analysis of the deposited data

How the results depend on the processing

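Members that favoured the distal site numbered 0 as reported and 1 (Rps23) with a pseudocount of 0.5 RPM, a gene minimum of 200 reads, edgeR, DESeq2 or no replicate block. With a site minimum of 1% they numbered 4 (Rps2, Rps13, Rps18 and Rps23) of 9 tested, and 2 (Rps3 and Rps15a) favoured the proximal site. With terminal exons as annotated, 3 members (Rps23, Rps25 and Rps27l) were tested and 0 were called in either direction. Over all genes limma called 751 distal and 301 proximal of 4716 tested in that setting. The adjusted p of Rps23 in limma was 0.0484 with no replicate block and lay between 0.111 and 0.174 when 1 library was left out.

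Over all genes, distal and proximal calls were 1862 and 775 with a pseudocount of 0.5 RPM, 3145 and 817 of 7148 tested with a site minimum of 1%, 484 and 226 with sites at least 100 bases apart, 1876 and 786 with DESeq2, 1331 and 590 with edgeR, and 1461 and 628 with no replicate block. With a site minimum of 10% limma called 0 and 0, where 972 and 531 had an unadjusted p under 0.05. With 1 library left out limma called 0 to 0 genes in each direction, where 1090 to 1405 distal and 439 to 593 proximal genes had an unadjusted p under 0.05. Why calls ended at a site minimum of 10% was not tested, and leaving out a library leaves 2.

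The log2 ratio of Rps25 lay between -0.32 and 0.075 when 1 library was left out, and was above 0 only without replicate 2. The median level was 518 RPM when scaled to autosomal reads. The median CV over all 27 members was 13.5%, and lay between 8.42% (without replicate 3) and 12.8% with 1 library left out. The main site changed in Rps6 without replicate 2, and in Rps6 and Rps25 without A-rich sites. The median 3′ UTR was 57 bases without A-rich sites. Of 243 alternative values of single levels, 224 moved by less than 1 SD. Members with few reads, such as Rps3a1 with 11 in replicate 1, are limited by depth.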
